A study of Rattus norvegicus with 8 samples.

Results

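Cdkn1a and 8 other target genes of the transcription factor p53 were followed in rat liver: Mdm2, Bax, Bbc3, Ccng1, Btg2, Phlda3, Gadd45a and Tp53inp1. They were chosen by name, as the non-control probes of the array whose gene name in the scanner files equals one of these symbols. They are 9 of 36181 gene names on the array and were covered by 14 of its 45598 probes, printed as 27 spots per array. Total liver RNA of male Wistar rats, labelled with Cy3, was hybridised to 1-colour Agilent arrays, 1 array per labelled rat. The 4 STL rats received butyrate-containing structured lipids by daily gavage at 1.65 g per kg body weight. The 4 control rats received maltodextrin at 3.0 g per kg body weight, a dose of equal energy content. Both groups were also taken through the resistant hepatocyte protocol of chemical liver carcinogenesis, begun at week 2 of the treatment, and livers were collected at week 8. The comparison therefore asked which transcripts differed with the structured lipids in livers under carcinogenesis, and livers free of carcinogen were not part of it.

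p53 is a transcription factor that is kept low by the ubiquitin ligase Mdm2 and is stabilised after DNA damage and other stress. It then binds DNA at a site made of a pair of half-sites and switches on genes that stop the cell cycle, start apoptosis or feed back on p53 itself. In hepatocytes Cdkn1a, the p53 target that encodes the cyclin-dependent kinase inhibitor p21, restrains entry into the cell cycle after injury and in regeneration. In the resistant hepatocyte model, most hepatocytes are held back from dividing while initiated cells escape that block and grow into foci. Several of the 9 genes also answer to other signals, so their RNA is no direct measure of p53 activity.

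The window around the RefSeq gene start, 250 bases before it and 50 after, was available for 6 of the 9 genes: Cdkn1a, Mdm2, Ccng1, Btg2, Phlda3 and Gadd45a. The consensus p53 half-site of 10 bases, which reads the same on both strands, was matched exactly in 3 of them, Cdkn1a, Ccng1 and Gadd45a, against 7.98% of all 33469 such windows. A full site of 20 bases, made of adjoining half-sites with at most 1 mismatch in all, lay in the windows of Cdkn1a and Ccng1 and in 0.0717% of all windows, 24 in number. The sequences of Cdkn1a and Ccng1 are shown because, of the 6 windows available, theirs hold a near-complete site. They are the 250 bases before the gene start in the GRCr8 build, 5′ to 3′ on the strand of the gene, and the capitals mark the full site. The Cdkn1a stretch is chr20:7150682-7150931 on the plus strand, and its site began at -201 from the gene start. The Ccng1 stretch is chr10:25684877-25685126 on the minus strand, and its site began at -242 from the gene start.
Cdkn1a: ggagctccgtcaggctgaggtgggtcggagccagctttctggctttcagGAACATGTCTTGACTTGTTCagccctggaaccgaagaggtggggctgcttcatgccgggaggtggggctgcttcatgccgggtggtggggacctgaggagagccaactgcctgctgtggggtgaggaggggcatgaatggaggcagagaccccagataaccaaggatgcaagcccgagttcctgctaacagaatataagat
Ccng1: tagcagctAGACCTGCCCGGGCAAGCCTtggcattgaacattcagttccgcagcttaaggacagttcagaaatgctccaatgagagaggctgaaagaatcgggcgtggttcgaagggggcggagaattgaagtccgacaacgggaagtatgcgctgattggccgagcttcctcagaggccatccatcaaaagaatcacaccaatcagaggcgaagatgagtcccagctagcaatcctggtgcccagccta
The Gadd45a half-site, GGGCTAGCCC, began at -48 from the gene start. A match describes these letters and does not show that p53 was bound there, and the absence of a match in the Mdm2, Btg2 and Phlda3 windows concerns those windows only.

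Every value below is a log2 signal on the scale of its array, log2 of the processed signal minus log2 of the array's 75th percentile, so that 0 is the level of that percentile. Levels of different probes are not compared with each other. Before scaling, the 75th percentile lay between 304.1 and 489.0 in the STL arrays, lowest in STL 7, and between 467.4 and 604.9 in the control arrays. Control 1 and control 2 were near-identical: the spread of their log2 ratios was 1.04 times that between repeated spots of one array, against 2.14 times or more for every other pair. Their difference was thus within the noise, their mean entered the fit as a single sample, and 4 STL samples stood against 3 control samples. The next closest pairs crossed the groups: by the same ratio STL 6 stood at 2.143 from control 2 and 2.204 from control 1. In that order STL 8 stood at 2.956 and 3.205, control 3 at 3.279 and 3.312, and control 4 at 4.648 and 4.895. STL 5 and STL 7 lay between control 3 and control 4. Control 1 and control 2 were thus nearer to STL 6 and STL 8 than to the other controls, and the part of this in the group differences was not tested. All 14 member probes passed the filter on dim probes. Livers are numbered by the label of their scanner file, and the authors' table numbers some of them otherwise within the groups. The labels speak of rats but do not describe how the RNA of each was kept apart, and the p-values measure the spread between these samples. In RNA of whole liver, fewer cells of a type and less RNA per cell cannot be told apart.

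None of the 9 genes passed the test between STL and control livers. With 0 of 14 probes past an adjusted p of 0.05 (limma, Benjamini-Hochberg over 27002 probes), the members were read against 0.0037% of all probes tested, which is 1 probe, that of Cish. At an unadjusted p under 0.05 by limma there were 3 member probes, 1 higher and 2 lower in STL livers, or 21.4% of 14, against 18.2% of all probes (10.8% higher and 7.4% lower). That count was 0 without control 3, 2 to 4 when any other single array was left out, 5 with 8 arrays as samples and 6 with array weights. Over all 27002 probes the count moved too, from 4925 in the main fit. It was 3369 without control 3 and 3302 to 5516 when any other single array was left out. With 8 arrays as samples it was 5405, and with array weights 7336. One of the 2 lower member probes, the dim Cdkn1a probe described below, was well above background mainly in controls and passed the filter through them. The limma adjusted p of the members lay between 0.217 and 0.818. Of the 14 probes, 5 were on the higher side, against 56.6% of all probes. On the higher side were 5 genes, each with only 1 probe (Mdm2, Bbc3, Btg2, Phlda3 and Gadd45a). On the lower side were 4 genes, Ccng1 with only 1 probe and Cdkn1a, Bax and Tp53inp1 with all of their probes. The median log2 difference of the members was 0.15 over the brightest probe of each gene and -0.15 over the 14 probes. It was 0.06 over the brightest probe of each gene tested and 0.05 over all probes tested.

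**Figure D1:**
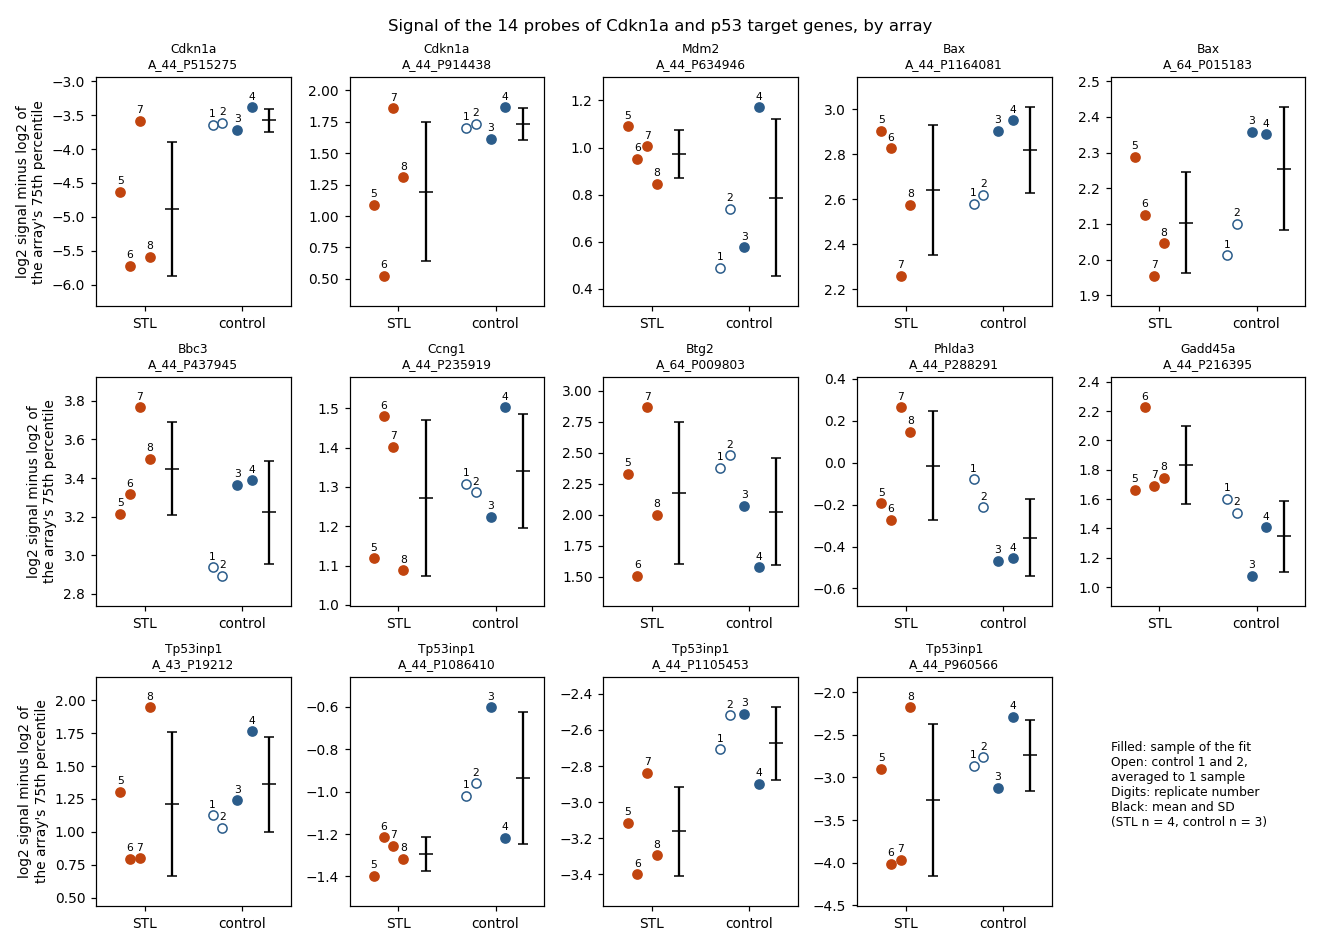
Log2 signal of the 14 member probes on each array, scaled to the 75th percentile of the array; STL livers are on the left and control livers on the right of each panel. Open points are control 1 and 2, averaged to 1 sample, and black bars are mean and SD (STL n = 4, control n = 3); only the Gadd45a panel has every STL point above every control sample.

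Cdkn1a, the cell cycle inhibitor, had the widest spread among the STL livers in relation to the controls. By its probe A_44_P914438 the log2 signal was 1.09, 0.52, 1.86 and 1.31 in STL 5, 6, 7 and 8, against 1.72 in the averaged control 1 and 2, 1.61 in control 3 and 1.86 in control 4. STL 5, 6 and 8 lay below every control, and STL 7 lay within the control range, so that the groups overlapped. The mean was 1.195 ± 0.55 (SD, n = 4) in STL livers and 1.73 ± 0.13 (SD, n = 3) in control livers, a log2 difference of -0.54 (SE 0.27, 95% interval -1.15 to 0.07) or a ratio of 0.689, with limma's adjusted p at 0.314. Without STL 6, the liver with the lowest value, the difference was -0.31 (limma adjusted p = 0.408).

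This Cdkn1a probe was printed at 10 places on each array, which gives the spread between repeated spots. The SD over its 8 to 10 usable spots was between 0.0312 and 0.115 on the 8 arrays. In STL 6 the spots ran from 0.28 to 0.66, in STL 7 from 1.75 to 1.97, and over the control arrays the lowest spot was at 1.54 and the highest at 1.94. Repeated spots of 1 array do not cover RNA preparation, labelling or hybridisation, so this SD is a lower limit of the error of a liver's value. The array of STL 7, the STL liver at the control level, was also the dimmest of the 8, with 54.2% of its probes well above background, against 57.8% to 62.9% in the other STL arrays and 58.8% to 61.3% in the control arrays. The part of that in the Cdkn1a value was not tested.

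A second Cdkn1a probe, A_44_P515275, lies 1090 bases upstream on the same strand and was far dimmer. It was well above background on 1 of 4 STL arrays, that of STL 7, and on 4 of 4 control arrays. Its log2 signal was -4.63, -5.72, -3.59 and -5.59 in STL 5, 6, 7 and 8, against -3.63 in the averaged control 1 and 2, -3.72 in control 3 and -3.38 in control 4. The values of STL 5, 6 and 8 were not well above background, so their order and the size of the difference are not read as a second measurement of Cdkn1a. The fitted log2 difference was -1.30 (SE 0.50, 95% interval -2.44 to -0.17, limma adjusted p = 0.235), and with normexp background correction, which compresses dim signals, it was -0.11 (limma adjusted p = 0.724). The first 30 bases of the 60-base probes of Cdkn1a and of Gadd45a, the members furthest from 0 in each direction by the brightest probe of each gene, are given here from the scanner files, with the span of the whole probe in the rn4 build.
Cdkn1a A_44_P914438, chr20:7386596-7386655, plus strand: ccctgtttctgtaacaccctgagctggact
Cdkn1a A_44_P515275, chr20:7385506-7385565, plus strand: tcagtgtgtcttaattattatttgtgtttt
Gadd45a A_44_P216395, chr4:96650454-96650513, minus strand: aacggtgattccccgaacggtgatggcatc

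**Figure D2:**
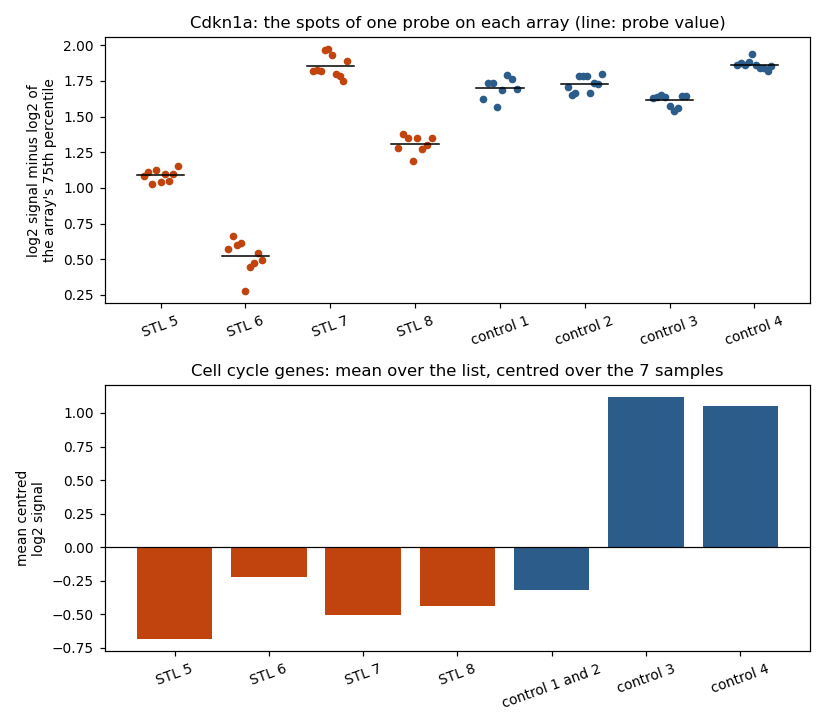
Upper panel: log2 signal of each usable spot of Cdkn1a probe A_44_P914438 on the 4 STL and 4 control arrays, with a line at the probe's value; STL 7 sits with the controls and STL 6 lowest. Lower panel: mean log2 signal of 28 cell cycle genes centred over the 7 samples, which was 1.12 in control 3 and 1.055 in control 4 and between -0.69 and -0.22 in the STL livers.

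The levels of cell cycle genes were set beside those of Cdkn1a, and a relation between them was not tested. The mean centred log2 signal of the cell cycle list was -0.69, -0.22, -0.51 and -0.44 in STL 5, 6, 7 and 8, against -0.32 in the averaged control 1 and 2, 1.12 in control 3 and 1.055 in control 4. The averaged control was inside the STL range for cell cycle genes but at the level of the other controls for Cdkn1a. Of 28 cell cycle genes tested, 27 were on the lower side and 0 passed adjusted over all probes, with 22 lower at an unadjusted p under 0.05 by limma, against 7.45% lower over the brightest probes of all genes. The count at an unadjusted p under 0.05 was 9 without control 3, 10 without control 4, 14 without STL 5 and 12 with 8 arrays as samples. Over all 27002 probes it was 3369, 3562, 3729 and 5405 in the same order, against 4925 in the main fit.

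The profile of Cdkn1a over the 7 samples was set against the brightest probe of each of 13451 other named genes tested. Nearest was Tjp3, a tight junction scaffold gene, at a root mean square distance of 0.128 on the log2 scale, followed by Il1r2, the decoy receptor of interleukin 1, at 0.173. Phlda2, a relative of the member Phlda3, was at 0.192, the death-associated protein kinase gene Dapk1 at 0.193 and Rnf212, which encodes a RING finger protein, at 0.194. The Il1r2 probe was dim, at -4.53, -4.61 and -4.30 in STL 5, 6 and 8, so its order of the livers is uncertain. Tjp3 was at 2.245, 1.73, 3.13 and 2.58 in STL 5, 6, 7 and 8, against 2.97 in the averaged control 1 and 2, 2.85 in control 3 and 3.45 in control 4. Its lowest value was in STL 6 and STL 7 lay within the control range, a likeness to Cdkn1a that follows from the choice by distance. How near the nearest of 13451 profiles over 7 samples would lie by chance was not tested.

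Gadd45a, a stress-induced protein of growth arrest and DNA repair, was the only member probe whose groups did not overlap. Its log2 signal was 1.66, 2.23, 1.69 and 1.75 in STL 5, 6, 7 and 8, against 1.55 in the averaged control 1 and 2, 1.08 in control 3 and 1.41 in control 4. Every STL liver was above every control, with STL 6 highest and the other STL livers close together. The margin was narrow: STL 5 was at 1.66 and control 1, taken alone, at 1.60. The probe was printed at 1 place on each array, so its own spread between spots is unknown. Over probes printed repeatedly, the log2 difference between spots of 1 array had a spread of 0.078. Such a lack of overlap in the higher direction was found for 10.5% of all probes tested, and in the lower direction for 5.71%, with 1 and 0 of the 14 member probes. The mean was 1.83 ± 0.27 (SD, n = 4) in STL livers and 1.345 ± 0.24 (SD, n = 3) in control livers, a log2 difference of 0.49 (SE 0.17, 95% interval 0.09 to 0.88) or a ratio of 1.40. It did not pass after adjustment (limma adjusted p = 0.217).

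STL 6 was thus the liver with the lowest Cdkn1a and the highest Gadd45a. Over the 14 member probes STL 6 was the lowest of the STL livers in 7 and the highest in 3, and STL 7 was the lowest in 2 and the highest in 6. Control 4 had the highest value of all 7 samples in 5 probes. These counts include the dim Cdkn1a probe A_44_P515275, whose order of the livers is not read, and the 4 probes of Tp53inp1. Already by Cdkn1a probe A_44_P914438 and the Gadd45a probe, the members did not share 1 order of the livers.

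**Figure D3:**
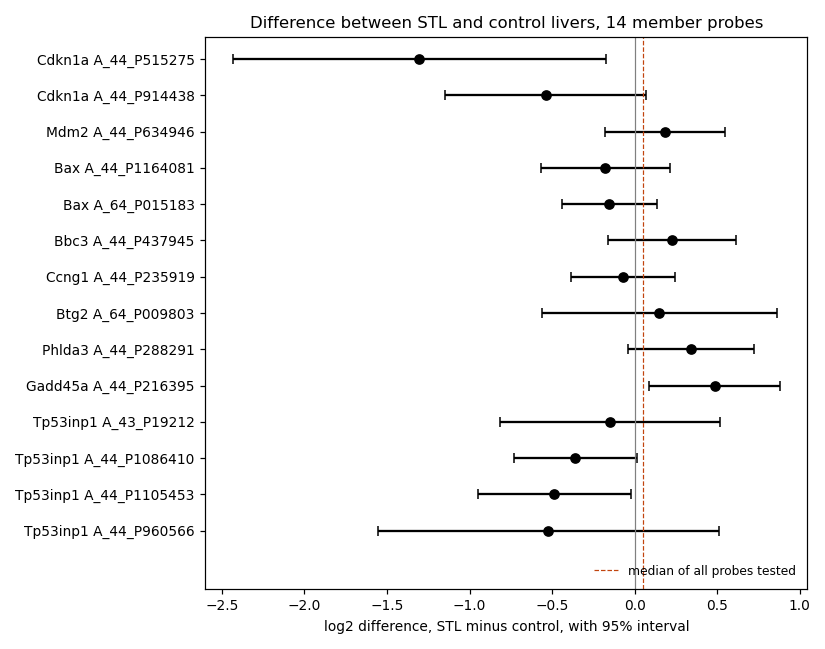
Log2 difference, STL minus control, of the 14 member probes with 95% intervals from limma (STL n = 4, control n = 3); the dashed line is the median of all probes tested, 0.05. The intervals of Gadd45a, of Cdkn1a A_44_P515275 and of Tp53inp1 A_44_P1105453 leave out 0, no probe passed after adjustment, and with normexp this Cdkn1a probe was at -0.11 and this Tp53inp1 probe at -0.0665.

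Mdm2, the ubiquitin ligase that degrades p53 and is itself induced by it, was at 1.09, 0.95, 1.01 and 0.85 in STL 5, 6, 7 and 8, against 0.61 in the averaged control 1 and 2, 0.58 in control 3 and 1.17 in control 4. The STL livers lay between the controls, close together, with an SD of 0.10 (n = 4) against 0.33 (n = 3) in controls. The log2 difference was 0.19 (SE 0.16, 95% interval -0.18 to 0.55, limma adjusted p = 0.546), an interval that runs from a ratio of 0.884 to one of 1.465.

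Of the apoptosis genes, Bax, a pore-forming protein of the mitochondrial membrane, was read by a pair of probes that gave a like picture. By A_44_P1164081 it was at 2.90, 2.83, 2.26 and 2.58 in STL 5, 6, 7 and 8, against 2.60 in the averaged control 1 and 2, 2.90 in control 3 and 2.95 in control 4. STL 7 and STL 8 lay below every control and STL 5 and STL 6 within the control range. The log2 difference was -0.18 (95% interval -0.57 to 0.21) by this probe and -0.15 (95% interval -0.44 to 0.14) by A_64_P015183, where STL 7 and STL 8 were again below every control (limma adjusted p = 0.595 and 0.532). Without STL 7 the differences were -0.0497 and -0.10.

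Bbc3, which encodes the BH3-only apoptosis protein PUMA, was at 3.21, 3.315, 3.77 and 3.50 in STL 5, 6, 7 and 8, against 2.915 in the averaged control 1 and 2, 3.365 in control 3 and 3.39 in control 4. STL 7 and STL 8 were above every control, the livers in which Bax was below every control. The log2 difference was 0.23 (SE 0.17, 95% interval -0.16 to 0.615, limma adjusted p = 0.491), and 0.12 without STL 7. The Bbc3 probe had no position in the rn4 build in the files. Phlda3, a p53 target that restrains the kinase Akt, was at -0.19, -0.27, 0.27 and 0.15 in STL 5, 6, 7 and 8, against -0.15 in the averaged control 1 and 2, -0.47 in control 3 and -0.46 in control 4. Here too STL 7 and STL 8 were above every control, and the log2 difference was 0.34 (SE 0.17, 95% interval -0.04 to 0.73, limma adjusted p = 0.3097).

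Among the genes of cell cycle control, Ccng1, cyclin G1, a target of p53 that helps to restrain it, differed least. Its log2 signal was 1.12, 1.48, 1.40 and 1.09 in STL 5, 6, 7 and 8, against 1.30 in the averaged control 1 and 2, 1.22 in control 3 and 1.503 in control 4. STL 5 and STL 8 lay below every control and STL 6 and STL 7 within the control range. The log2 difference was -0.07 (SE 0.14, limma adjusted p = 0.8098), with a 95% interval of -0.38 to 0.25, or ratios of 0.766 to 1.19. Cdkn1a and Ccng1, which had a near-complete p53 site among the 6 windows available, had differences of -0.54 and -0.07. Whether such a site goes with a difference was not tested.

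Btg2, an antiproliferative gene that is also an immediate early response gene, was at 2.33, 1.51, 2.87 and 2.001 in STL 5, 6, 7 and 8, against 2.43 in the averaged control 1 and 2, 2.075 in control 3 and 1.58 in control 4. It had the highest value of all samples in STL 7 and the lowest in STL 6, and the groups overlapped throughout. The log2 difference was 0.15 with a 95% interval of -0.56 to 0.86 (limma adjusted p = 0.818), the widest interval of the members with 1 probe.

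Tp53inp1, a stress-induced protein of apoptosis and autophagy, was read by 4 probes spread over 7738 bases of chromosome 5. From upstream to downstream the log2 differences were -0.36 (A_44_P1086410, limma adjusted p = 0.288), -0.52 (A_44_P960566, 0.552), -0.15 (A_43_P19212, 0.807) and -0.49 (A_44_P1105453, 0.258). All 4 were on the lower side, but A_43_P19212 was at 0.13 with array weights and 0.0535 without control 4. With normexp background correction A_44_P1105453 was at -0.0665 and A_44_P960566 at -0.0089, and without control 3 A_44_P1086410 was at -0.19. The livers stood in different orders by the 4 probes. By A_43_P19212, the brightest, the signal was 1.31, 0.80, 0.80 and 1.95 in STL 5, 6, 7 and 8, against 1.08 in the averaged control 1 and 2, 1.24 in control 3 and 1.76 in control 4. STL 8 was above every control there and also by A_44_P960566, at -2.18 against -2.29 in control 4, the highest control.

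By A_44_P1086410, in contrast, the STL livers were close together at -1.40, -1.22, -1.25 and -1.32 in STL 5, 6, 7 and 8, against -0.99 in the averaged control 1 and 2, -0.60 in control 3 and -1.22 in control 4. By A_44_P1105453 they were at -3.11, -3.40, -2.84 and -3.295, against -2.61 in the averaged control 1 and 2, -2.51 in control 3 and -2.90 in control 4. Each of these probes had 3 STL livers below every control. In the files each of the 4 probes is assigned to a transcript record of its own, and A_44_P960566 was well above background on 3 of 4 STL arrays.

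**Figure D4:**
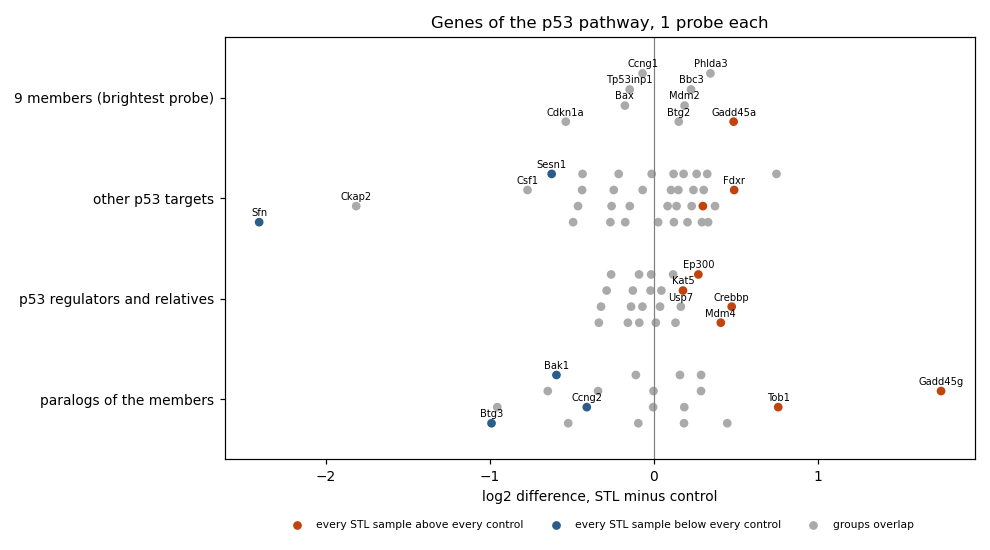
Log2 difference, STL minus control, of the 9 members, 36 other p53 targets, 22 regulators and relatives of p53 and 19 paralogs of the members, 1 probe per gene. Colours mark genes whose groups do not overlap; Gadd45g and Sfn lie furthest out, at 1.75 and -2.40, and no gene shown passed after adjustment.

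The wider pathway was described by lists of genes. Of 36 other p53 targets tested, 0 passed adjusted over all probes, 1 was higher and 4 were lower at an unadjusted p under 0.05 by limma, or 13.9%. Over the brightest probes of all genes that share was 19.0%, with 11.6% higher and 7.45% lower, and 0.00457% passed after adjustment. A difference above 0 was found for 58.0% of those genes, every STL liver above every control for 11.2% and every STL liver below every control for 5.63%, together 16.8% without overlap. Of the 36 other targets, 20 had a difference above 0, with no overlap for 2 in the higher and 2 in the lower direction, and the median log2 difference of the 36 was 0.09. Without STL 6, the count at an unadjusted p under 0.05 was 10. Over all 27002 probes it was 5516 without STL 6, against 4925 in the main fit. Sfn, 14-3-3 sigma, a G2 checkpoint protein of epithelial cells, was at -3.31, -2.67, -3.61 and -3.46 in STL 5, 6, 7 and 8, against -1.54 in the averaged control 1 and 2, -1.15 in control 3 and 0.11 in control 4. Every STL liver was below every control, the difference was -2.40 (SE 0.39, limma adjusted p = 0.124), and it passed only in 3 of 20 alternatives. Over all alternatives the Sfn difference lay between -2.74 and -1.34. The cholangiocyte and progenitor list, which covers other epithelial cells of the liver, was likewise highest in control 4, with a mean centred log2 signal of 1.25 there, and the part of such cells in the Sfn value was not tested.

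Fdxr, a mitochondrial ferredoxin reductase, was higher by 0.49 with no overlap, and Sesn1, a sestrin of the antioxidant and TORC1 response, differed by -0.62 with every STL liver below every control. Both margins were narrow: Fdxr was at 3.574 in STL 6 against 3.555 in control 3, and Sesn1 at -1.667 in STL 6 against -1.651 in control 4. Over all alternatives the differences lay between 0.32 and 0.62 for Fdxr and between -0.81 and -0.30 for Sesn1. The macrophage growth factor gene Csf1 was at -0.77 and the spindle protein gene Ckap2 at -1.81, both with overlap (limma adjusted p between 0.187 and 0.236 for these 4 genes). Ckap2 followed the cell cycle genes, with STL livers at -2.505 to -2.05, the averaged control 1 and 2 inside that range at -2.31, and far higher values in control 3 (0.89) and control 4 (0.10). The part of dividing cells in the Ckap2 value was not tested. Over all alternatives the Ckap2 difference lay between -2.75 and -1.15, and it passed without control 1 and 2 (limma adjusted p = 0.0078).

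Of 22 regulators and relatives of p53, 0 passed, and the median was -0.02. At an unadjusted p under 0.05 by limma 2 were higher and 0 lower, or 9.09%, against 19.0% over the brightest probes of all genes. That count was 1 without control 3 and 4 without control 4. Over all 27002 probes it was 3369 and 3562 in the same order, against 4925 in the main fit. The groups did not overlap for 4 of the 22 in the higher and 0 in the lower direction, against 11.2% and 5.63% of all genes. Mdm4, a partner of Mdm2 that blocks p53, was at 0.41 by its brightest probe, with no overlap (limma adjusted p = 0.188), but at -0.22 and -0.11 by its other probes, so that no direction can be given for the gene. The acetyltransferase genes Crebbp, Ep300 and Kat5 were at 0.47, 0.27 and 0.18, each with every STL liver above every control and none past the threshold (limma adjusted p between 0.202 and 0.374). Usp7, which encodes a deubiquitinase of p53 and Mdm2, was at 0.16 with overlap (limma adjusted p = 0.442), and at -0.03 by its other probe.

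Of 19 paralogs of the members, 0 passed, and the median was -0.01. At an unadjusted p under 0.05 by limma 3 were higher and 4 lower, or 36.8%, against 19.0% over the brightest probes of all genes. The count was 5 without control 3 or without control 4, and 8 without STL 6 or with 8 arrays as samples. Over all 27002 probes it was 3369, 3562, 5516 and 5405 in the same order, against 4925 in the main fit. The groups did not overlap for 2 in the higher and 3 in the lower direction, against 11.2% and 5.63% of all genes. In the GADD45 family Gadd45g stood furthest out, at 5.85, 5.88, 4.12 and 4.76 in STL 5, 6, 7 and 8, against 3.61 in the averaged control 1 and 2, 3.84 in control 3 and 2.755 in control 4. Every STL liver was above every control, with STL 5 and STL 6 highest, and the difference was 1.75 (SE 0.45, limma adjusted p = 0.181) by this probe and 1.62 by the other. Gadd45b, which overlapped between groups, was at 0.16 (limma adjusted p = 0.813), beside 0.49 for Gadd45a; whether the 3 family members differ from each other was not tested.

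Among the relatives of Cdkn1a, Cdkn1b (p27) was at -0.01 and Cdkn1c (p57) at 0.45 by their brightest probes, and at -0.32 and 0.36 by the others, none past the threshold. Tob1, an antiproliferative relative of Btg2, was at 0.76, and Btg3 was at -0.99, with no overlap for either (limma adjusted p = 0.187 and 0.202). Both margins were narrow, between STL 6 and the averaged control 1 and 2: 1.279 against 1.273 for Tob1 and -3.261 against -3.239 for Btg3. The Btg3 probe was dim, well above background on 3 of 4 STL arrays. Over all alternatives its difference lay between -1.22 and -0.21. Ccng2, cyclin G2, was at -0.41 and Bak1, the pore-forming partner of Bax, at -0.59, both with every STL liver below every control (limma adjusted p = 0.196 and 0.197).

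The tissue is labelled liver, and 15 of 15 hepatocyte markers were well above background. The mean centred log2 signal of the hepatocyte list was 0.03 to 0.32 in STL livers, against -0.72 to 0.21 in controls, lowest in control 4, and 14 of 15 members were on the higher side. The range was -1.27 to 0.45 in STL livers, against 0.35 to 1.65 in controls, for 16 preneoplastic lesion markers, and -1.08 to 0.23 against 0.13 to 1.25 for 9 cholangiocyte markers. It was -0.54 to 0.04 in STL livers, against -0.09 to 0.75 in controls, for 12 stellate cell markers, -0.12 to 0.13 against -0.10 to -0.00 for 8 endothelial markers, and -0.23 to 0.21 against 0.11 to 0.14 for 12 macrophage markers. It was 0.07 to 0.197 in STL livers, against -0.39 to 0.07 in controls, for 9 lymphocyte markers, with Cd3e, Ms4a1, Cd2 and Klrb1 not well above background on any array. For 7 mast cell and granulocyte markers it was -0.87 to -0.05 in STL livers, against 0.35 to 0.64 in controls, with Ms4a2 and Mpo not well above background on any array. None of these lists had a member past the threshold, and their part in the values of the p53 targets was not tested.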

How the data were processed

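The deposited scanner files hold the intensity of each spot, made by the authors with Agilent Feature Extraction, version 11.5.1.1 per the file headers and 10.7 per the submitters' processing notes. The 8 arrays lay on 1 slide with 1 scan time. The authors' series table, used as an alternative, holds linear intensity with the 75th percentile near 1000 and column medians of 42.1 to 48.9. Set against the scanner files, 6 of its 8 columns matched a different rat than the one labelled, always within the group, and 0 crossed groups. The identity of single rats inside a group is therefore unsettled.

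Outlier spots were left out and spots of a probe averaged. Values are log2 of the processed signal over the array's 75th percentile. The 27002 probes tested were well above background on 4 or more arrays. The two-sided test was limma 3.58.1 (R 4.3.3), trend by intensity, p-values adjusted after Benjamini and Hochberg, threshold 0.05. No log2 value is one of the authors'. Near-identical arrays, with a ratio under 1.5 to the noise between spots, were averaged. Genes outside the members were named by RefSeq accession (21109 probes), symbol (6684) or synonym (424) of GRCr8. Promoter sequences are from RefSeq. In simulated data with 200 changed probes per repeat the fit called 35.4% of probes with a true log2 difference of 1 and 82.5% at 2. The simulated noise was independent between probes, so variation shared by many probes of an array was not covered. Differences below 1, such as the -0.54 of Cdkn1a, were not simulated.

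Members and lists were chosen with earlier results of these data known. Named were all members, for each of the 3 p53 lists the 5 genes with the smallest unadjusted p, since none passed, and the 5 profiles nearest to Cdkn1a. Other list genes (Gadd45b, Cdkn1b, Cdkn1c) were named after their values were seen. One gene of the list of regulators is not reported here, and its values are left out of that list. Python 3.11.15 was used. The number of arrays limits the precision. Alternatives covered sample number, background correction, normalization, filters, slide column, array weights, the prior, probe choice, the series table and leaving out each array.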

Additional observations from a re-analysis of the deposited data

Results flagged for a closer look

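The Gadd45a value of STL 6, at a log2 signal of 2.23, stood apart from the other STL livers: its gap to the nearest of them was 0.851 of the range of the 4 STL samples, above Dixon's critical value for a group of that size. The STL values of 14 probes were examined in this way, and chance flags about 1 in 20 such groups. The controls, counted as 3 samples, were too few for it. The flagged Gadd45a value rests on 1 spot.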

How the results depend on the processing

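No member probe passed the threshold in any of 20 alternatives (lowest adjusted p by limma 0.0764, Gadd45a with array weights), and 267 of 273 member values kept their direction and their side of it. The exceptions were Ccng1 (0.0116 without control 4, and -0.139 to 0.0116 over all leave-outs of 1 array), Btg2 (-0.00408 with array weights, -0.07 without control 4, -0.0796 without STL 7, and -0.0796 to 0.374 over the leave-outs) and Tp53inp1 by A_43_P19212 (0.13 with array weights, 0.0535 without control 4, and -0.393 to 0.0535 over the leave-outs). Over all alternatives Cdkn1a lay between -0.76 and -0.31 (A_44_P914438) and Gadd45a between 0.35 and 0.61. Mdm2 lay between 0.08, without control 3, and 0.38, without control 4. The cause of these shifts was not tested.

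The count of all probes past the threshold, 1, was 30 with 8 arrays as samples. Slide column as a block and the authors' table also took 8 samples, and gave 2 and 89, to be set against 30. It was 84 with array weights and 227 without control 1 and 2 together. Leaving out 1 array gave 1 to 54, with 54 without STL 6 and 3 without control 3. Among other p53 targets 1 passed with array weights and with the authors' table, and 2, Sfn and Ckap2, without control 1 and 2. Without STL 6 the counts were 1 of the paralogs, 1 cell cycle gene and 2 lesion markers, against 0 in each, and so 0 to 1, 0 to 1 and 0 to 2 when 1 array was left out. Without control 1 and 2 they were 15 cell cycle genes, 1 hepatocyte marker and 1 mast cell or granulocyte marker. Sfn passed with array weights (adjusted p = 0.0311), with the authors' table (0.0484) and without control 1 and 2 (0.02998), over a range of 0.02998 to 0.3055. Scaling by the median moved the median of all probes from 0.0531 to 0.00809, and normexp moved it to 0.115. No paired analysis was possible because the groups share no replicate numbers. Slide column, with 1 array of each group, was the block instead.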
